A study of Mus musculus with 6 samples.

Results

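The complement genes examined were 9: *C1qa*, *C1qb* and *C1qc* (the chains of C1q), *C3*, *Cfb* and *Cfp* (the alternative pathway), *C6* (a terminal component) and *C3ar1* and *C5ar1* (receptors for complement fragments). They were picked by name out of 49315 genes listed, and all 9 were found and passed the filter on low counts. Cells carrying F4/80, mostly Kupffer cells (the macrophages resident in liver), were taken by magnetic sorting from livers of mice fed a high-fat diet (HFD, 60% fat) for 16 weeks and profiled by poly-A RNA sequencing. The 3 Lpcat3KOMac libraries came from Lpcat3 fl/fl LysM Cre/+ mice and the 3 WT libraries from Lpcat3 fl/fl LysM +/+ littermates, so that both groups carried the floxed *Lpcat3* alleles and differed by the Cre allele, on a C57BL/6N background. The diet was started in young adult mice. Cre driven from the *LysM* locus (*Lyz2*) acts in myeloid cells at large, not in Kupffer cells alone, and deletes incompletely. Libraries are named by genotype and label number, and since the labels do not identify the animals, p-values measure the spread between these libraries, which may be partly technical.

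Complement is a cascade of plasma proteins that marks microbes, immune complexes and dying cells. C1q recognizes the target in the classical pathway, C3 is the component on which all pathways converge, factor B and properdin build the alternative pathway amplification loop, and the terminal components assemble a membrane pore. Hepatocytes make most circulating complement proteins, whereas C1q and properdin come mainly from myeloid cells, which also carry the receptors for the released C3 and C5 fragments.

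The genes of C1q lie side by side on the minus strand of chromosome 4 (GRCm38). *C1qb* spans 136880129 to 136886187, *C1qc* 136889804 to 136893065 and *C1qa* 136895917 to 136898803. The 3 genes fill a stretch of 18675 bases that holds no other listed gene. The promoter windows of *C1qb*, *C1qc* and *C3* (250 bases before to 50 after the RefSeq start, minus strand, GRCm38.p6) are shown because these genes moved differently from library to library. They lie at chr4:136886151-136886450, chr4:136892865-136893164 and chr17:57228087-57228386 in that order. Capitals mark GAGGAA (or its reverse complement TTCCTC), the core bound by the myeloid factor PU.1, in the C1q genes, and TTNNGNAAT (or ATTNCNNAA), the motif of C/EBP factors, in *C3*.
C1qb: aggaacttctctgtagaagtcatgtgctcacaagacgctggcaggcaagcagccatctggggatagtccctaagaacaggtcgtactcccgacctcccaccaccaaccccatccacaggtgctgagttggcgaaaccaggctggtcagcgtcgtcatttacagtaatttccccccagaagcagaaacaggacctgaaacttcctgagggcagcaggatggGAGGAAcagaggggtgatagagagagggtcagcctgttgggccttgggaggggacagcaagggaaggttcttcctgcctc
C1qc: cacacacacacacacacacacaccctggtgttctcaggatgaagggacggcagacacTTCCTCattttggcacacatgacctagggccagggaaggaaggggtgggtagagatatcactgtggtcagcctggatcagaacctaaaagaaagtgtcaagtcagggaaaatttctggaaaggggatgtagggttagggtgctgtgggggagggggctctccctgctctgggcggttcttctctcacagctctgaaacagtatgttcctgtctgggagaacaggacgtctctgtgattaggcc
C3: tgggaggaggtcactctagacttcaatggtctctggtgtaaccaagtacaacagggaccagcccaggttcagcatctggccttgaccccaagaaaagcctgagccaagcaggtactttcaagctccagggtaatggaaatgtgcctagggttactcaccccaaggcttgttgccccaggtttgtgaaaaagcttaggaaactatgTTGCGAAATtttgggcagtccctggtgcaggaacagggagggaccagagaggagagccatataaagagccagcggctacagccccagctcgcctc
Windows were found in RefSeq for 7 of the 9 genes, all but *C1qa* and *Cfb*. GAGGAA occurred on either strand in *C1qb*, *C1qc* and *Cfp*, and in 28.3% of 32851 promoter windows of the same length. TTNNGNAAT occurred in *C3* and *C6*, and in 11.5% of them. The matches of the 2 motifs did not overlap. They ended 25 bases before the start in *C1qb*, 188 in *C1qc*, 37 in *C3* and 80 in *C6*, and both matches in *Cfp* lay after the start. A match is a description of the letters and not of binding. *C3* and *C6* share the C/EBP motif, but their slopes on *Alb*, explained below, were 0.75 and -0.19. Any link between these motifs and the levels was not tested.

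Total counts per library were between 44954224 and 71392812, so that counting error was small beside the spread between libraries for every complement gene described. *Lpcat3* was at 85, 66.2 and 61.2 CPM (CPM, counts scaled to library size and composition by TMM, is the unit of all levels here) in WT 1 to 3 and at 19.5, 33.3 and 19.4 in Lpcat3KOMac 1 to 3. *Lyz2*, the gene at the Cre locus, had a log2 fold change (Lpcat3KOMac against WT) of -1.42. The hepatocyte mRNA *Alb* was at 13100, 1200 and 1320 CPM in WT 1 to 3 and at 3130, 9290 and 3140 in Lpcat3KOMac 1 to 3, a 10.8-fold range that crossed both genotypes. WT 1 and Lpcat3KOMac 2 therefore stood apart from the other libraries. Slopes on *Alb*, explained below, are also given without WT 1 for *C3* and *Cfb*, and otherwise with all 6 libraries unless stated. The correlations of these 2 genes with *Alb* are given with and without both libraries. The summed level of 6 Kupffer cell or macrophage markers was 26600 to 37500 CPM in WT and 20900 to 29100 in Lpcat3KOMac libraries. Summed markers of neutrophils (5 genes) were at 2.08 to 3.13 CPM in WT and 4.24 to 5.61 in Lpcat3KOMac, of monocytes (4 genes) at 75.3 to 142 and 74 to 141, and of T, NK and B cells (5 genes) at 2.79 to 5.49 and 4.13 to 4.48. Those of liver sinusoidal endothelium (5 genes) were at 795 to 909 and 880 to 1060 CPM, of stellate cells (5 genes) at 69.8 to 180 and 126 to 226, of dendritic cells (4 genes) at 5.99 to 9.12 and 8.1 to 11.4, and of hepatocytes (5 genes) at 1730 to 19300 and 4340 to 12500. The neutrophil gene *Ly6g* had at most 0.0637 CPM.

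*C1qa* was at 3080, 3860 and 3370 CPM in WT 1 to 3 and at 2760, 2610 and 2970 CPM in Lpcat3KOMac 1 to 3. The values of *C1qb* were 3060, 3690 and 3340 CPM in the WT libraries and 2750, 2780 and 2920 CPM in the Lpcat3KOMac libraries. Those of *C1qc* were 3090, 3800 and 3390 CPM in the WT libraries and 2750, 2660 and 3020 CPM in the Lpcat3KOMac libraries. For each of the 3 chains, WT 2 was the highest library and every Lpcat3KOMac library was below every WT library, with the closest pair being WT 1 and Lpcat3KOMac 3. C1q is assembled from equal numbers of its A, B and C chains. The mRNA levels of the chains moved almost as a unit: the ratio of *C1qa* to *C1qb* lay between 0.94 and 1.05, of *C1qa* to *C1qc* between 0.982 and 1.02 and of *C1qb* to *C1qc* between 0.964 and 1.05 over the 6 libraries. These are ratios of CPM not divided by gene length, so they show steady proportions and not equal amounts of mRNA. Per kilobase of exon the means were 2990, 2840 and 1610 CPM for *C1qa*, *C1qb* and *C1qc*. Reads on the 3 genes made up 0.823% to 1.11% of all counts in a library.

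*Cfp* (chromosome X, 20925454 to 20931555, minus strand), which encodes properdin, the stabilizer of the alternative pathway convertase, was at 1530, 2160 and 1710 CPM in WT 1 to 3 and at 1450, 1110 and 1480 CPM in Lpcat3KOMac 1 to 3. As for C1q, WT 2 was highest and the groups did not overlap, although Lpcat3KOMac 3 was close to WT 1. *C3* (chromosome 17, 57203970 to 57228136, minus strand) reached 1880, 361 and 249 CPM in WT 1 to 3, against 594, 1130 and 543 CPM in Lpcat3KOMac 1 to 3. The 2 highest libraries, WT 1 and Lpcat3KOMac 2, were one of each genotype, and the Lpcat3KOMac libraries lay inside the WT range. *Cfb* (chromosome 17, 34856374 to 34862518, minus strand), which encodes factor B, the protease component of the alternative pathway convertase, reached 62.5, 35.7 and 31 CPM in WT 1 to 3, against 35, 46 and 27.5 CPM in Lpcat3KOMac 1 to 3. It had the same 2 libraries on top as *C3*. Of the 2825 exonic bases of *Cfb*, 2246 are shared with *Gm20547* on the same strand, which had at most 2 counts in a library, so reads in the shared exons may have been left uncounted and the level of *Cfb* is uncertain.

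*C6* (chromosome 15, 4727175 to 4815456, plus strand), which encodes a component of the membrane attack complex, was at 798, 1280 and 795 CPM in WT 1 to 3 and at 700, 459 and 951 CPM in Lpcat3KOMac 1 to 3. WT 2 was again highest and Lpcat3KOMac 2 lowest, and the groups overlapped. *C3ar1* (chromosome 6, 122847138 to 122856161, minus strand), the receptor for C3a, had 233, 426 and 314 CPM in WT 1 to 3, and 285, 218 and 352 CPM in Lpcat3KOMac 1 to 3. Its lowest libraries were WT 1 and Lpcat3KOMac 2, the reverse of *C3*. *C5ar1* (chromosome 7, 16246743 to 16259540, minus strand), the receptor for C5a, was the steadiest of the 9 genes, with 97.6, 114 and 103 CPM in WT 1 to 3, and 122, 109 and 115 CPM in Lpcat3KOMac 1 to 3. Its highest library was only 1.25-fold above its lowest, against 7.55-fold for *C3*, 2.78-fold for *C6* and 2.28-fold for *Cfb*.

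**Figure D1:**
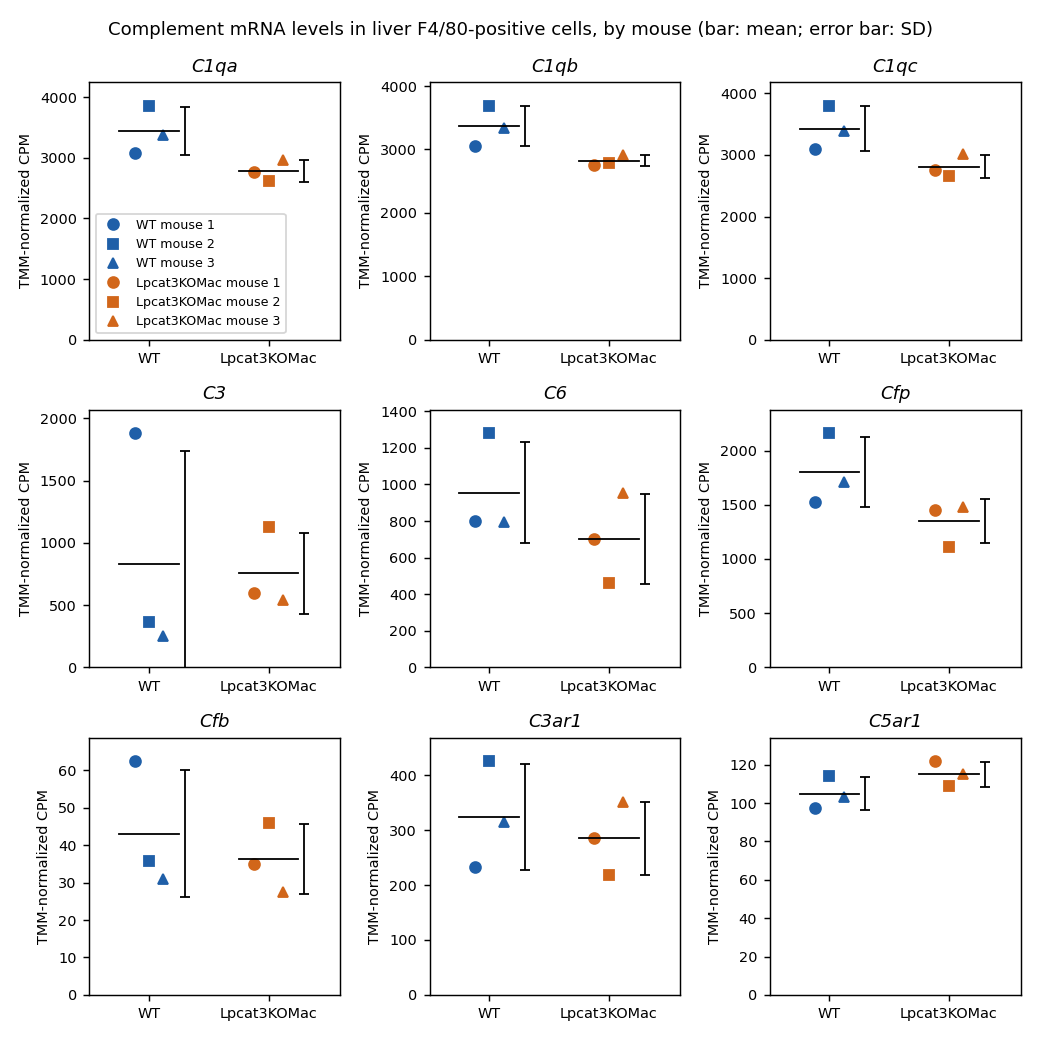
TMM-normalized CPM (vertical axis, from 0) of the 9 complement genes in each library of WT (blue) and Lpcat3KOMac (orange) cells, with the group mean (horizontal bar) and SD (error bar, n = 3; that of *C3* in WT runs below 0 and is cut at the axis). The 3 C1q genes and *Cfp* had no overlap between genotypes, whereas *C3* and *Cfb* were highest in WT 1 and Lpcat3KOMac 2.

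Levels of different genes were compared per kilobase of exon. The mean over the 6 libraries was 2990 CPM per kilobase for *C1qa*, 2840 for *C1qb*, 1610 for *C1qc*, 906 for *Cfp* and 206 for *C6*. It was 154 for *C3*, 70.8 for *C3ar1*, 68.4 for *Cfb* (over its 579 exonic bases not shared with *Gm20547*) and 42.9 for *C5ar1*. The steps from *C1qb* to *C1qc*, *C1qc* to *Cfp* and *Cfp* to *C6* held in 6 of 6 libraries. That from *Cfb* to *C5ar1* did too, but the value of *Cfb* assumes that no counted read fell in its shared exons. Divided by all 2825 exonic bases, *Cfb* would lie below *C5ar1* instead, so their order is not known. *C1qa* was above *C1qb* in 5 of 6. The order of *C6*, *C3*, *C3ar1* and *Cfb* (over its 579 bases) was not separated by the spread, each neighbor being higher in 4 of 6 libraries.

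The first comparison asked whether complement mRNAs differed between Lpcat3KOMac and WT cells. The C1q genes and *Cfp* had lower values in Lpcat3KOMac cells, but none of the 9 genes passed the threshold after adjustment over the 16134 genes tested (0 of 9 called by edgeR's quasi-likelihood test after Benjamini-Hochberg adjustment, as were 0.0% of all genes, and 0 of 9 by DESeq2, which called 0.0955% of its 15700 genes). EdgeR did not call the deleted gene *Lpcat3* either (log2 fold change -1.56, unadjusted p = 0.00119), nor *Lyz2* (-1.42, unadjusted p = 0.00351). A missing call therefore does not show that a gene was unchanged. Mean levels of *C1qa* were 3440 ± 392 CPM in WT cells and 2780 ± 181 CPM in Lpcat3KOMac cells (SD, n = 3 each), and its log2 fold change was -0.31 (SE 0.12, 95% interval -0.6 to -0.02, unadjusted p = 0.0401 and adjusted p = 1 in edgeR). For *C1qb* the means were 3370 ± 315 and 2820 ± 88.2 CPM and the log2 fold change -0.26 (SE 0.1, unadjusted p = 0.0439 in edgeR). For *C1qc* they were 3430 ± 358 and 2810 ± 191 CPM and the log2 fold change -0.29 (SE 0.11, unadjusted p = 0.046 in edgeR). For *Cfp* they were 1800 ± 324 and 1350 ± 203 CPM and the log2 fold change -0.42 (SE 0.18, unadjusted p = 0.0593 in edgeR).

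An unadjusted p under 0.05 was thus seen for 3 of the 9 complement genes, which are neighbors in one locus, against 2.64% of all genes tested (1.57% being lower in Lpcat3KOMac cells). The groups did not overlap for 4 of the 9 genes, all lower in Lpcat3KOMac cells, against 7.49% of all genes (5.2% being lower). For these 4 genes the two-sided exact permutation p was 0.1, the smallest that 3 libraries against 3 can give. The separation rested on the scaling. With DESeq2's size factors the same 4 genes had no overlap, but with total counts alone the C1q genes and *Cfp* overlapped between genotypes, and only *C5ar1* was apart, with 6.37% of all genes apart on that scale. In WT 1, which had the most *Alb*, C1q reads were 0.841% of all counts, below the 0.865% of Lpcat3KOMac 1 and the 0.918% of Lpcat3KOMac 3. The fold changes of the C1q genes and *Cfp* were negative under each scaling, but with total counts alone those of *C1qa*, *C1qb* and *C1qc* shrank to -0.22, -0.17 and -0.2 and none of the 3 had an unadjusted p under 0.05 (0.182, 0.244 and 0.213 in edgeR). The same held without robust dispersion (unadjusted p = 0.0705, 0.0875 and 0.0816 in edgeR). With each library left out in turn, the log2 fold change of *C1qa* stayed between -0.38 and -0.22, that of *C1qb* between -0.32 and -0.19, that of *C1qc* between -0.36 and -0.21 and that of *Cfp* between -0.52 and -0.27.

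For the remaining 5 genes the groups overlapped, and each had an adjusted p of 1 in edgeR. *C3* averaged 829 ± 910 CPM in WT and 756 ± 326 CPM in Lpcat3KOMac cells, with a log2 fold change of -0.13 (SE 0.84, unadjusted p = 0.88 in edgeR). Its sign was not stable. Without WT 1 the log2 fold change of *C3* was 1.31 (unadjusted p = 0.0184 and adjusted p = 0.306 in edgeR). It also turned positive under other settings listed at the end, such as 0.38 with limma-voom and 0.45 with the replicate block. The log2 fold change was -0.44 for *C6* (SE 0.32), -0.25 for *Cfb* (SE 0.33), -0.19 for *C3ar1* (SE 0.27) and 0.14 for *C5ar1* (SE 0.09). Their exact permutation p-values were 0.4, 0.6, 0.7 and 0.2, and that of *C3* was 0.8. With *Alb* as a covariate the log2 fold change was -0.18 for *C3* (SE 0.19) and -0.41 for *Cfb* (SE 0.13, unadjusted p = 0.0202 and adjusted p = 0.508 in edgeR). In that fit 1453 of 16134 genes had an unadjusted p under 0.05, *C1qa* (0.0422) and *Cfp* (0.0445) among them. Without the covariate, the sign of *Cfb* turned on leaving out WT 1 (0.12) and that of *C3ar1* on leaving out WT 2 (0.06). In all, 8 of the 9 genes had a negative log2 fold change, against 59.9% of the genes tested, and the median was -0.26 against -0.04 over all genes tested.

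**Figure D2:**
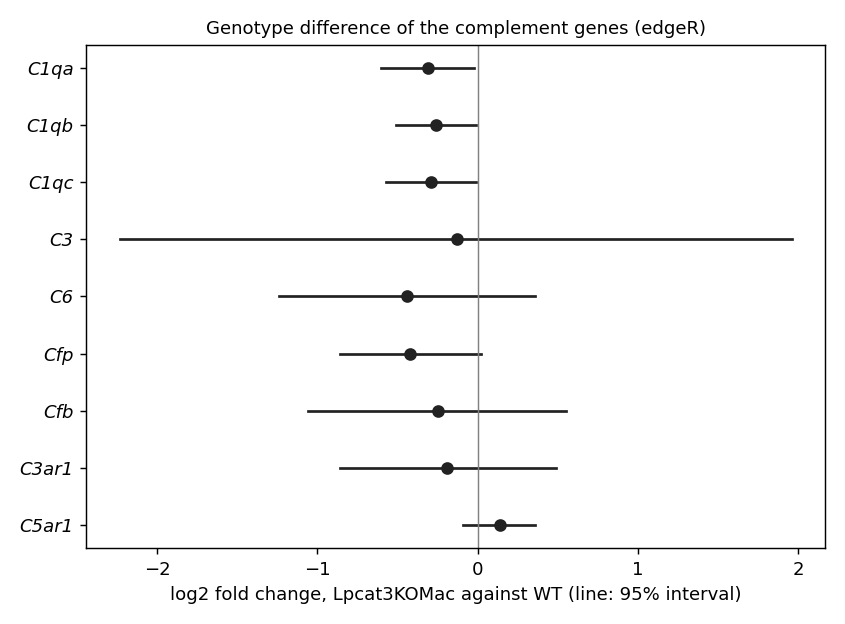
Log2 fold change (Lpcat3KOMac against WT, horizontal axis) of each complement gene from edgeR, with its 95% interval, before adjustment for multiple testing. The intervals of the 3 C1q genes lie just below 0, and that of *C3* is the widest.

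The lower C1q and *Cfp* values were set beside mRNAs of Kupffer cells, since in bulk RNA fewer cells of a type and less RNA per cell cannot be told apart. The log2 fold change of these mRNAs was -0.18 for *Adgre1* (F4/80, SE 0.16), -0.22 for *Cd5l* (SE 0.13), -0.23 for *Csf1r* (SE 0.2) and -0.44 for *Clec4f* (SE 0.17). None passed the threshold (adjusted p = 1 for each in edgeR), and the groups overlapped for all but *Clec4f*. The ratio of *C1qa* to *Cd5l* was 0.318 ± 0.00829 in WT and 0.301 ± 0.0169 in Lpcat3KOMac cells (SD, n = 3), a log2 difference of -0.08 (exact permutation test, p = 0.2). The corresponding log2 difference was -0.03 for *C1qb* (exact p = 0.7) and -0.06 for *C1qc* (exact p = 0.3). Relative to *Clec4f* the direction turned, with log2 differences of 0.13, 0.18 and 0.15 for *C1qa*, *C1qb* and *C1qc* (exact p = 0.3 for each). Over the 4 denominators, the C1q genes gave exact permutation p-values of 0.2 or more.

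The ratio of *Cfp* to *Adgre1* was 0.718, 0.708 and 0.716 in WT 1 to 3 and 0.623, 0.561 and 0.62 in Lpcat3KOMac 1 to 3. The groups did not overlap, and the log2 difference was -0.25 (exact permutation test, p = 0.1). Relative to *Cd5l*, *Csf1r* and *Clec4f* the log2 difference of *Cfp* was -0.2, -0.22 and 0.02 (exact p = 0.3, 0.2 and 0.7). The part of macrophage number in the lower C1q and *Cfp* values was not tested.

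The second comparison asked which complement mRNAs followed *Alb* from library to library and which did not. A slope of the log2 level on the log2 level of *Alb*, fitted by edgeR with genotype in the model, is 1 for an mRNA proportional to *Alb* and 0 for one that does not move with it. *C3* rose with *Alb*, with a slope of 0.75 (SE 0.07, 95% interval 0.57 to 0.92, adjusted p = 0.00201 in edgeR). *Cfb* rose less steeply, with a slope of 0.28 (SE 0.05, 95% interval 0.16 to 0.4, adjusted p = 0.0125 in edgeR). Of the 9 complement genes 2 were thus called rising and 0 falling, where 14.9% of all genes tested were rising and 7.26% falling (22.2% called in all). Of the genes called, 2404 (67.2%) rose and 1172 fell, and with total counts alone 2146 rose and 2142 fell. Without WT 1 no gene of the whole table was called, and the slopes of *C3* and *Cfb* were 0.61 and 0.35 (adjusted p = 0.25 and 0.323 in edgeR).

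The C1q genes had shallow slopes below 0 over the 10.8-fold range of *Alb*, none of them called. The slopes were -0.07 for *C1qa* (95% interval -0.17 to 0.02), -0.05 for *C1qb* (-0.14 to 0.04) and -0.07 for *C1qc* (-0.16 to 0.02), with adjusted p-values of 0.227, 0.335 and 0.246 in edgeR. With total counts alone they were -0.11, -0.09 and -0.11 (adjusted p = 0.061, 0.102 and 0.0682 in edgeR). The highest library was 1.48-fold above the lowest for *C1qa*, 1.34-fold for *C1qb* and 1.43-fold for *C1qc*. *C5ar1* (-0.05), *Cfp* (-0.13), *C6* (-0.19) and *C3ar1* (-0.23) also had slopes below 0, with adjusted p-values of 0.238, 0.13, 0.276 and 0.0545 in edgeR. A slope below 0 was found for 53.5% of all genes tested, and the median slope was -0.07 for the complement genes and -0.01 for all genes. With total counts alone *Cfp* (-0.17, adjusted p = 0.0405 in edgeR) and *C3ar1* (-0.27, adjusted p = 0.0204) were called falling, and the same was seen without WT 3. *C3ar1* was also called falling without the genotype term (-0.23, adjusted p = 0.0294 in edgeR).

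For reference, the hepatocyte mRNAs *Apoa1*, *Ttr*, *Fgb* and *Ahsg* had slopes of 1.06, 1.09, 1.0 and 1.04, and the macrophage mRNAs *Adgre1*, *Cd5l*, *Clec4f*, *Csf1r* and *Lyz2* of -0.11, -0.08, -0.08, -0.13 and -0.23. The slopes of the C1q genes, *Cfp*, *C5ar1*, *C6* and *C3ar1* lay within or just above the range of these macrophage mRNAs. Macrophage mRNAs were not all so steady. The Kupffer cell markers *Timd4* and *Marco* had slopes of -0.34 and -0.52, neither called (adjusted p = 0.357 and 0.378 in edgeR). Their highest library was 7.63-fold and 21.3-fold above their lowest. The slope of *C3* was below that of each of the 4 hepatocyte mRNAs, and its interval did not reach 1. The slope of *Cfb* lay between both groups, and its interval reached neither 0 nor 1.

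**Figure D3:**
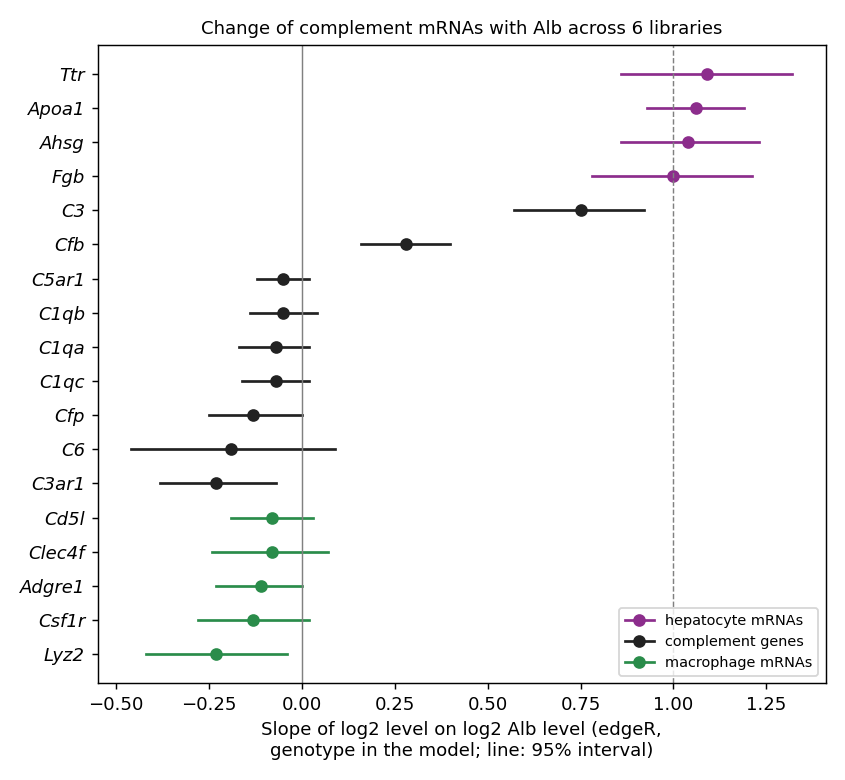
Slope of the log2 level on the log2 *Alb* level over 6 libraries (points; lines, 95% interval) for hepatocyte mRNAs, complement genes and macrophage mRNAs, with solid and dashed verticals at 0 and 1. *C3* and *Cfb* lie to the right of 0 and the other 7 complement genes lie between -0.23 and -0.05.

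Read library by library, *C3* amounted to 14.4, 30 and 18.9 CPM per 100 CPM of *Alb* in WT 1 to 3 and to 19, 12.2 and 17.3 in Lpcat3KOMac 1 to 3. The ratio was lowest in the 2 libraries with the most *Alb* and highest in WT 2, which had the least. A straight line of *C3* on *Alb* on the linear scale had an intercept of 148 CPM (SE 71.7) and rose by 12.4 CPM per 100 CPM of *Alb* (SE 1.05). Without WT 1 the intercept was 210 CPM (SE 49.9) and the rise 10.1 (SE 1.07). For *Cfb* the intercept was 26.9 CPM (SE 3.34) and the rise 0.245 CPM per 100 CPM of *Alb* (SE 0.0489), so that at the lowest *Alb* levels most of the fitted *Cfb* level was intercept. Leaving out WT 1 gave *Cfb* an intercept of 29 CPM (SE 3.44) and a rise of 0.168 (SE 0.0737).

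Correlations with *Alb* were also taken over the 6 libraries. For *C3* Pearson's r with *Alb* was 0.98 (exact permutation p = 0.00556, adjusted p = 0.0574 over all genes) and Spearman's rho 0.89 (exact permutation p = 0.0333, adjusted p = 0.175), and r was 0.89 in the 4 libraries without WT 1 and Lpcat3KOMac 2. For *Cfb* r was 0.79 (exact permutation p = 0.0639, adjusted p = 0.179) and rho 0.49 (exact permutation p = 0.356, adjusted p = 0.568). In the 4 libraries r of *Cfb* was -0.37. There *Alb* was at 1200 and 1320 CPM in WT 2 and 3 and at 3130 and 3140 in Lpcat3KOMac 1 and 3. An r over these 4 libraries therefore cannot tell *Alb* from genotype, for any gene. With genotype in the model the slope of *Cfb* was 0.35 without WT 1 and 0.28 without Lpcat3KOMac 2 (adjusted p = 0.323 and 0.0372 in edgeR). For *C3ar1* r was -0.87 (exact permutation p = 0.0333, adjusted p = 0.125) and rho -0.77 (exact permutation p = 0.103, adjusted p = 0.329), with r of -0.53 in the 4 libraries. For the C1q genes r was -0.68 for *C1qa*, -0.65 for *C1qb* and -0.68 for *C1qc* (exact permutation p = 0.139, 0.179 and 0.139, adjusted p = 0.288, 0.338 and 0.288), with rho of -0.6, -0.49 and -0.6 (exact permutation p = 0.242, 0.356 and 0.242). In the 4 libraries r was -0.93, -0.95 and -0.92, and over the 6 libraries with total counts alone it was -0.91, -0.91 and -0.92 (exact permutation p = 0.0181 and adjusted p = 0.0931 for each). No gene of the table had an adjusted p under 0.05 by this measure (0.0%), and 31.5% had an unadjusted p under 0.05.

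*C3* was also set against C1q within each library, a ratio that does not depend on scaling, whereas the *Alb* level it was compared with does. The log2 ratio of *C3* to the mean of the C1q genes had an r with *Alb* of 0.99 (exact permutation p = 0.00556) and a rho of 0.89 (exact permutation p = 0.0333). That of *Cfb* had an r of 0.93 (exact permutation p = 0.0111) and a rho of 0.71 (exact permutation p = 0.136).

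**Figure D4:**
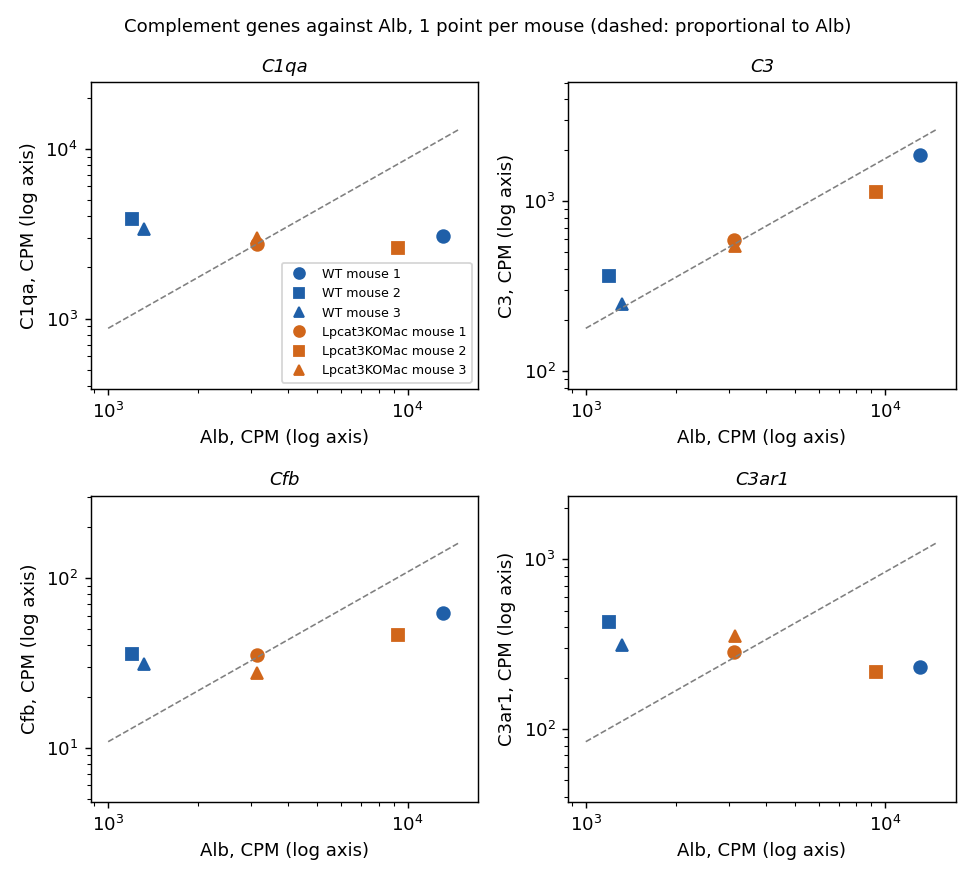
Level of *C1qa*, *C3*, *Cfb* and *C3ar1* against that of *Alb* (CPM, both axes logarithmic), 1 point per library, with a dashed line of proportionality to *Alb*. *C3* climbs along the dashed line but less steeply, *Cfb* climbs chiefly in the 2 libraries with the most *Alb*, *C1qa* changes little and *C3ar1* is lowest in those 2 libraries.

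The other genes of the pathway, 42 by a list of components, regulators and receptors, gave the surroundings of these values. Of the 39 that passed the filter, 19 rose and 1 fell with *Alb* in edgeR's test, beside 14.9% rising and 7.26% falling among all genes tested. These calls were made with all 6 libraries, and without WT 1 no gene of the whole table was called. The 39 genes divided by role. All 5 terminal components tested rose, with slopes of 0.91 to 1.03, among them *Hc* (C5, 1.0), *C8a* (0.98) and *C9* (1.03). The interval of *C6* (-0.46 to 0.09 around its slope of -0.19) lay below the slope of each of these, although the difference itself was not tested. Of the 8 soluble regulators 7 rose, such as *Clu* (1.0) and *Vtn* (0.94).

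Among initiators and their proteases 6 of 14 rose. The highest in level, *Fcna* (ficolin A) and *C4b*, were at 1040 to 2630 and 622 to 2090 CPM and had slopes of -0.11 and -0.17, neither called. *C4b* and *C4a* are close paralogs whose reads may be split between them. The proteases that bind C1q differed between themselves, *C1s1* having a slope of 1.0 and *C1ra* of 0.43, both called rising. Of the 8 receptors none rose, and *Vsig4* (the complement receptor of Kupffer cells, at 1840 to 2900 CPM) had a slope of -0.06 and *Itgb2* of -0.11. The 1 gene that fell was *Itgam* (-0.42, adjusted p = 0.00431 in edgeR), of whose 5024 exonic bases 3450 are shared with *Gm49368* on the same strand. Of the 4 membrane regulators 1 rose, *Cd59a* (0.54), and the highest in level, *Cd55*, had a slope of -0.47 that was not called (adjusted p = 0.181 in edgeR). By genotype, 0 of the 39 genes were called, 0 had an unadjusted p under 0.05 in edgeR (2.64% of all genes), and 31 had a negative log2 fold change (59.9% of all genes), with a median of -0.24 against -0.04 over all genes. Genes that rose with *Alb* were high in WT 1 and had wide errors, such as *C8a* (-0.81, SE 1.19) and *Hc* (-0.32, SE 1.12). *C8a* was at 277, 30.5 and 9.43 CPM in WT 1 to 3 and at 62.2, 74.7 and 43.5 in Lpcat3KOMac 1 to 3. The count and the median were not computed without WT 1. The groups did not overlap for 1 gene, *Cr1l* (-0.19), which is 1 of 39 against the 7.49% of all genes.

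**Figure D5:**
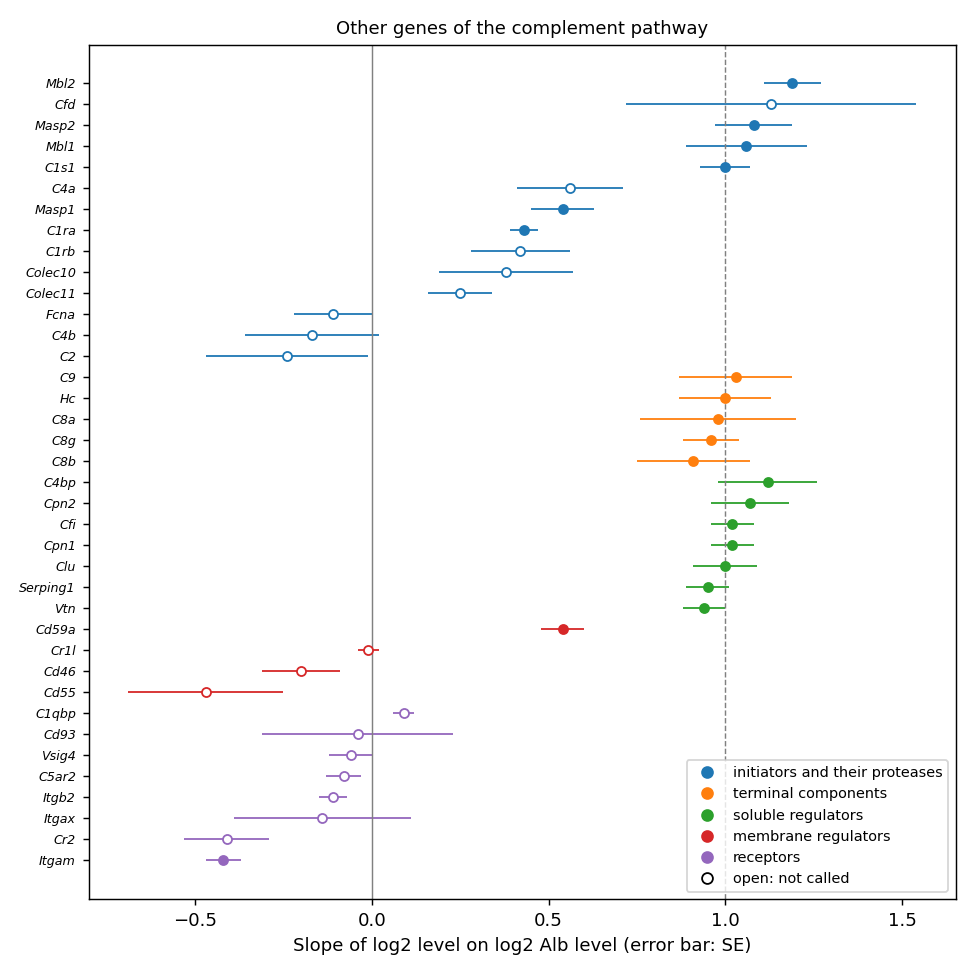
Slope on the log2 *Alb* level (points; error bars, SE) of other complement genes tested, colored by role and filled where edgeR called the slope. The 5 terminal components and 7 soluble regulators lie near 1, and receptors lie between -0.42 and 0.09.

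Genes whose pattern over the 6 libraries was most like each complement gene were sought among the 9071 genes with a mean of at least 10 CPM, by Pearson's r of the log2 levels. With 6 libraries that differ in *Alb* and genotype, high values of r are common, and they are given as a description only. *C1qa* was nearest to *C1qc* (r = 0.997), then *Cnpy3* (0.99) and *Fbxl14* (0.988), and *C1qb* to *Cnpy3* (0.991), *Fbxl14* (0.99) and *Itm2c* (0.988). *C3* was nearest to *Proz*, *Gpt* and *Pxmp2* (1.0 for each), of which *Proz* encodes a plasma protein of hepatocytes and *Gpt* an aminotransferase abundant in them. *C1qc* was nearest to *C1qa* (0.997), *Fbxl14* (0.992) and *Itm2c* (0.991). *Cfp* was nearest to *Chrac1* (0.997), *Ube2n* (0.992) and *Bnip2* (0.99), and *C6* to *Nptn* (0.997), *Nipsnap2* (0.995) and *Pcolce2* (0.99). *Cfb* was nearest to *Mto1* (0.999), *Ctdsp1* (0.995) and *Rangap1* (0.995). Of the receptors, *C3ar1* was nearest to *Arhgap17* (0.997), *St7* (0.994) and *Tnfrsf1b* (0.992), and *C5ar1* to *Dgkq* (0.977), *Elk1* (0.971) and *Ints2* (0.967). No other complement gene of the 9 was among the 3 nearest of *C3*, *C6*, *Cfp*, *Cfb*, *C3ar1* or *C5ar1*.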

How the data were processed

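F4/80-positive liver cells of WT and Lpcat3KOMac mice on HFD were sequenced in 3 libraries per genotype. Each library was taken as 1 mouse, which the labels do not state. The authors deposited raw read counts per Ensembl gene, with no normalization. The submitters' processing notes name Trimmomatic 0.36, STAR 2.5.2b, featureCounts of Subread 1.5.2 and GRCm38. The strand setting and the treatment of multi-mapping reads are not given in the sources used here, so overlapping genes and close paralogs are uncertain. Symbols came from GENCODE M21, which held 49056 of the identifiers, 44858 with the same ends. *C6* is among those whose ends differ.

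Genotypes were contrasted in R 4.3.3 by edgeR 4.0.16 with genotype as the only term, over 16134 genes. The fit used TMM, the default expression filter with minimum count 10 and the robust quasi-likelihood test. The slope on the log2 CPM of *Alb* (prior count 2) was tested in the same way with genotype in the model, over the 16133 genes other than *Alb*. Benjamini-Hochberg adjustment covered all genes tested, with a threshold of 0.05. The common biological coefficient of variation was 0.391. Single genes were also compared by two-sided exact permutation tests over the libraries, with 720 pairings for correlations.

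Replicate numbers come from the labels alone and were not taken to pair the libraries. Deviations from the group mean of same-numbered libraries correlated at -0.303, -0.596 and 0.36.

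The genes named are the 9 complement genes, the other pathway genes of highest level in each role (1 item is not reported here), the 3 nearest genes of each, and hepatocyte, macrophage and targeted genes. *C1ra*, *C1s1*, *C8a*, *C9*, *Vtn*, *Cd59a*, *Itgam*, *Itgb2* and *Cr1l* were named after their values were seen. The members and lists were chosen with earlier results of these data known. The alternatives were DESeq2's size factors, total counts alone, filters on low counts, DESeq2 1.42.0, limma-voom (limma 3.58.1), no robust dispersion, the replicate block, *Alb* as a covariate, a mean of 5 hepatocyte mRNAs, Spearman's rho, a prior count of 0.5 and leaving out each library. The SE of an edgeR value is its absolute size over the root of its F value. Ratios to macrophage mRNAs and to C1q, and the linear fits, were chosen after seeing the data.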

Additional observations from a re-analysis of the deposited data

How the results depend on the processing

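Depth did not limit the complement genes, and the spread between 3 libraries per group did. Between genotypes edgeR called 0 genes under each setting, and DESeq2 called 15, none of them a complement gene. The replicate block called 0 genes, with 138 at an unadjusted p under 0.05 in place of 426. The unadjusted p of *C1qa*, *C1qb* and *C1qc* with that block was 0.118, 0.127 and 0.125 in edgeR. Same-numbered libraries did not deviate together, so this is no paired analysis.

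With *Alb*, 3576 genes were called, 1256 with the replicate block in place of genotype, and 0 to 3257 with each library left out, the 0 without WT 1. Complement genes called were 2, but 1 with that block (*C3*), 4 with total counts alone, and 0 to 4 with each library left out, the 0 without WT 1 and the 4 without WT 3. Without the genotype term *Cfb* was lost (adjusted p = 0.0551 in edgeR) and *C3ar1* gained as falling (adjusted p = 0.0294), so the count stayed at 2.

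The genotype difference of *C3* changed sign to 0.015 with total counts alone, 0.38 with limma-voom, 0.45 with the replicate block, 1.31 without WT 1, 0.037 without Lpcat3KOMac 1 and 0.074 without Lpcat3KOMac 3. That of *Cfb* became 0.12 without WT 1 and that of *C3ar1* 0.058 without WT 2. Relative to *Clec4f* it was 0.13 for *C1qa*, 0.18 for *C1qb*, 0.15 for *C1qc* and 0.02 for *Cfp*. Pearson's r with *Alb* was -0.37 for *Cfb* and 0.66 for *C5ar1* in the 4 libraries nearest the median of *Alb*, and 0.14 for *C5ar1* without WT 1. In those 4 libraries the level of *Alb* also separated the genotypes. With each library left out in turn the difference ranged from -0.57 to 1.31 for *C3*, from -0.46 to 0.12 for *Cfb* and from -0.38 to 0.058 for *C3ar1*, and r of *C5ar1* from -0.73 to 0.14. The cause of these changes was not tested. Of the other values of single genes under an alternative, 329 kept their direction and side of the threshold, 5 passed it and 4 fell short of it.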
